A study of Mus musculus with 12 samples.

Results

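The 41 genes described here drive or mark the cell division cycle: mitotic cyclins and kinases, spindle checkpoint and spindle genes, regulators of the entry into DNA synthesis, replication licensing and fork proteins, and enzymes of nucleotide supply. They are Ccnb1, Ccnb2, Cdk1, Aurka, Aurkb and Plk1 (mitotic cyclins and kinases); Bub1, Bub1b, Mad2l1, Ttk and Cdc20 (spindle checkpoint and anaphase promoting complex, APC/C); Kif11, Kif20a, Kif23, Tpx2, Cenpe, Cenpf, Birc5, Top2a and Mki67 (spindle and chromosomes). The G1 regulators are Ccnd1, Ccnd3, Cdk4, Cdk6, Ccne1, Ccne2 and E2f1, the licensing and fork genes Cdc6, Cdt1, Mcm2 to Mcm7, Cdc45, Gins2 and Pcna, and the nucleotide genes Rrm1, Rrm2 and Tyms. They were chosen by name, matched by symbol to 41 of the 52661 Ensembl genes counted, and all 41 were among the 21053 genes that passed the filter on low counts. RNA-seq had been done on 12 libraries from CGR8, a line of mouse embryonic stem cells kept in serum with leukemia inhibitory factor (LIF), a cytokine that maintains pluripotency. All cells carried a stably transfected ppy-cagg-ires-puro vector. In the control group it was empty (n = 3). In the other groups it encoded netrin-1, a secreted guidance protein, in its wild-type form (netrin-1 WT, n = 3) or as a point mutant labelled by the receptor whose interaction it concerns, Unc5b (unc5B MUT, n = 3) or neogenin (neo1 MUT, n = 3). The comparisons ask how the transcriptome differs with and without netrin-1 and between its forms. No label says whether a group's 3 libraries are separate cultures or clones, so each p-value reflects how far these libraries scatter, and that scatter may be technical.

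A dividing cell passes through G1, DNA synthesis (S phase), G2 and mitosis. D-type cyclins with Cdk4 or Cdk6 and cyclin E with its kinase release E2F transcription factors from the retinoblastoma protein. E2F factors switch on genes of licensing and DNA synthesis, and later in the cycle the genes of mitosis rise through CCAAT and CHR promoter elements. Mouse embryonic stem cells are known for a short G1 phase, with high cyclin E and low D-type cyclin activity, so that most cells of a culture are in S, G2 or mitosis. A bulk library averages over all phases: fewer cells in a phase and less RNA per cell of that phase cannot be told apart.

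Summed estimated counts were 22256195 to 59735737 per library. The libraries carry replicate numbers 1 to 3 shared by the groups, and the 4 libraries numbered 3 stood apart, with 22256195 to 24736421 counts and 3.92% to 4.28% of them on processed pseudogenes, against 2.08% to 2.41% in the other 8. Deviations from the group mean were alike in libraries that share a number (correlations of 0.58 to 0.88). They were also alike between numbers 1 and 2 (0.49 to 0.76). These values set number 3 apart and cannot show a pairing by 3 numbers. Each comparison was therefore fitted without the number and with the number as a block, which removes what libraries of 1 number share. Levels are CPM, estimated counts scaled to library size, and "rose" and "fell" are used only of genes that passed an adjusted p of 0.05 in the fit with the block, or between replicate numbers in the fit with the group. Ntn1, the mouse gene of the expressed protein, was at 0.782 to 15.4 CPM in control, 76.9 to 287.6 in netrin-1 WT, 56.5 to 219.2 in neo1 MUT and 34.9 to 321.7 in unc5B MUT. The 8 stem cell markers (Pou5f1, Nanog, Sox2 and others) summed to 3178 to 4278 CPM, with Pou5f1 at 969.3 to 1487 in every library, so this defining marker was present throughout. Single markers varied more than the sum: Nanog was at 104.7 to 440.9 CPM, Sox2 at 234.1 to 739.1 and Klf4 at 39.3 to 175.1. Zfp42 was at 236.7 to 736.3, Tdgf1 at 178.7 to 608.3, Esrrb at 220 to 398.4 and Dppa5a at 640.8 to 1033. The 8 primitive endoderm markers, an early extraembryonic lineage, summed to 346.8 to 443.6 CPM in control, 196.3 to 250.9 in unc5B MUT, 41.9 to 53.0 in netrin-1 WT and 28.3 to 83.7 in neo1 MUT. The 4 fibroblast markers that passed the filter summed to 7.92 to 17.9 CPM in control, 5.56 to 13.7 in netrin-1 WT, 4.63 to 7.71 in neo1 MUT and 9.57 to 9.94 in unc5B MUT, and Col3a1, Postn, Dcn and Lum did not pass it.

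The cell cycle genes were abundant. Per length (RPKM, CPM per kilobase of annotated exon), the median member was at 43.1 against 2.18 for all genes tested, and 25 of the 41 lay in the top 10% of those genes. Among the highest were Cdk4, a G1 kinase (162 ± 29.9 RPKM over 12 libraries), the ribonucleotide reductase subunit Rrm2 (153 ± 24.2) and the sliding clamp Pcna (142 ± 31.5). The helicase subunit Mcm2, with a mean of 147 ± 129, was at 55.6 to 68.9 RPKM in the 8 libraries numbered 1 and 2 and 263.4 to 355.5 in the 4 numbered 3. The lowest were the other G1 kinase, Cdk6 (1.81 ± 0.603 RPKM), Ccne2 (5.71 ± 2.52) and Ccnd1 (7.92 ± 2.02). The cyclin E gene Ccne1 was at 44.8 to 94.4 RPKM in the libraries numbered 1 and 2, above the D-type cyclin Ccnd3 at 17.7 to 20.7. In the libraries numbered 3 the order was the other way, with Ccne1 at 60.5 to 88.4 and Ccnd3 higher in each, at 88.3 to 121. Over the order of the 41 genes by their mean of 12 libraries, only 3 of the 40 neighbouring pairs differed by more than the larger of their SDs: Cdk1 and Birc5, Tyms and Ccnd1, and Ccne2 and Cdk6.

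**Figure D1:**
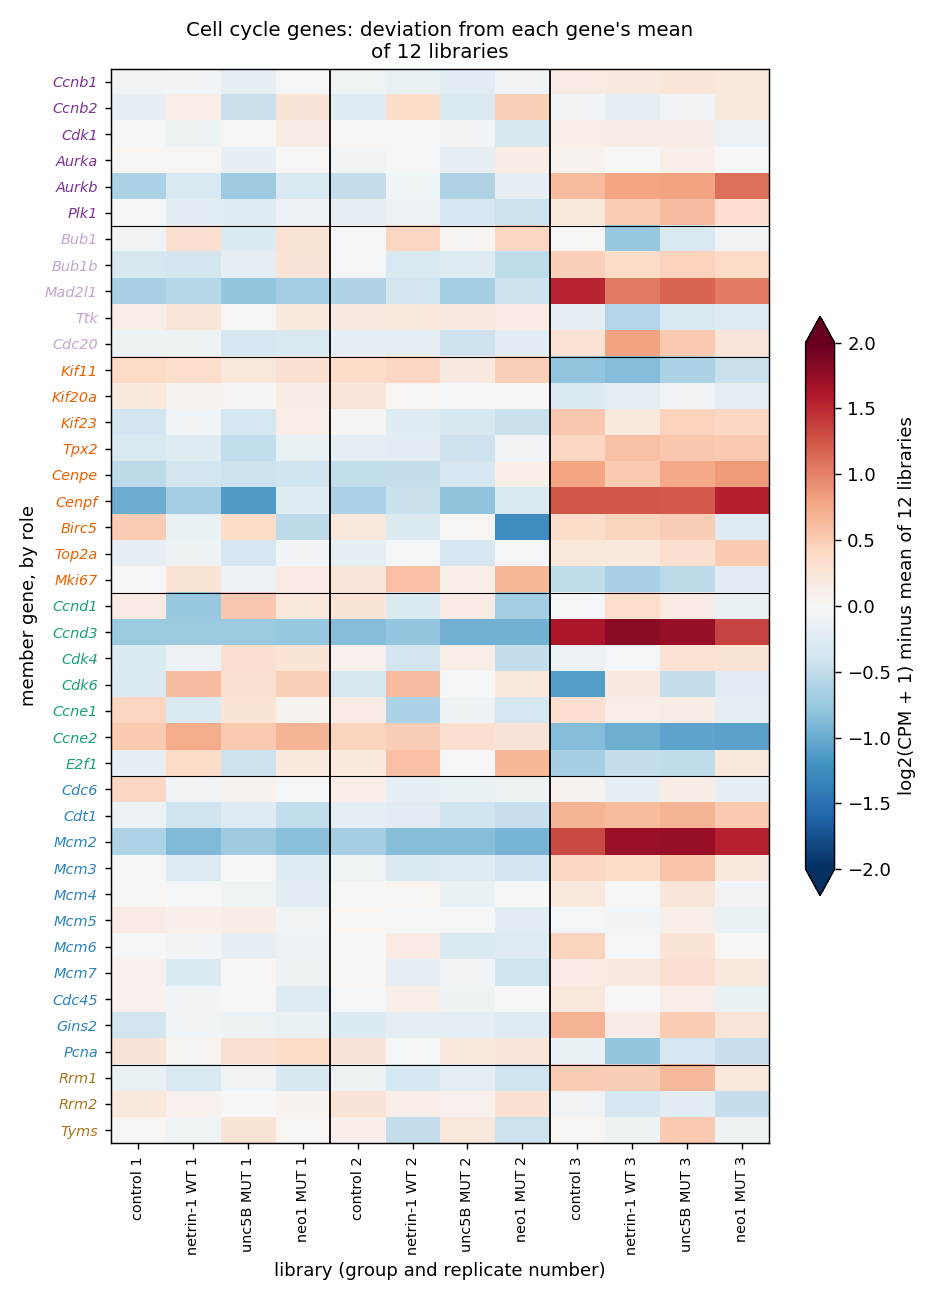
Deviation of each cell cycle gene (rows, grouped and coloured by role) from its own mean over the 12 libraries (columns, ordered by replicate number and then group), on the scale of log2(CPM + 1). Ccnd3, Mcm2, Cenpf and Mad2l1 are higher in all 4 libraries numbered 3, and Ccne2 and Kif11 are lower in all 4.

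Few of the genes passed a test between groups. Without the block 0 of the 41 passed in each of the 6 comparisons. The share of all genes called was 0.0997% for netrin-1 WT against control, 0% for unc5B MUT against control, 0.128% for neo1 MUT against control, 0% for unc5B MUT against netrin-1 WT, 0.076% for neo1 MUT against netrin-1 WT and 0.133% for neo1 MUT against unc5B MUT. At an unadjusted p of 0.05, 2, 0, 3, 1, 1 and 3 members passed in the same order (edgeR quasi-likelihood test), against 5.79%, 1.13%, 7.26%, 5.03%, 4.82% and 6.85% of all genes, where 1 member is 2.44% and 3 are 7.32%. DESeq2 and limma-voom without the block called 0 members in each. They called 0.0522% to 2.01% (DESeq2) and 0% to 0.18% (limma-voom) of all genes, each below the share of 1 member. With the block 6 of the 41 passed in at least 1 comparison (Cdk6, Ccne1, Birc5, Cenpf, E2f1 and Tyms) and 35 in none. The share of all genes that passed in at least 1 comparison was not counted, so these 6 have no background beside them. The 3 comparisons with control share the control libraries.

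Against control, 2 members changed in netrin-1 WT (4.88% of 41, where 3.5% of all genes passed): Cdk6 rose and Ccne1 fell. In neo1 MUT 2 changed (also 4.88%, background 5.26%), a share near the background: Cdk6 rose and Birc5 fell. In unc5B MUT 0 changed (background 0.0285%), and 1 member was at an unadjusted p of 0.05, as were 4.7% of all genes. The DESeq2 test with the block called 1 there, Cdk6, and 0.499% of all genes. Between the forms, 0 members differed between unc5B MUT and netrin-1 WT (background 1.97%), with 9 (22% of the members, 17.6% of all genes) at an unadjusted p of 0.05 and 2 by DESeq2, Cdk6 and Tyms (4.88%, against 7.04%). Between neo1 MUT and netrin-1 WT 0 differed (background 1.99%), with 5 (12.2% of the members, 14.3% of all genes) at an unadjusted p of 0.05 and 1 by DESeq2, Birc5 (2.44%, against 5.39%). Between neo1 MUT and unc5B MUT 4 differed (background 4.87%): Cenpf and E2f1 were higher and Birc5 and Tyms lower in neo1 MUT. These 4 are 9.76% of the members, on a list where 1 gene is 2.44%.

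**Figure D2:**
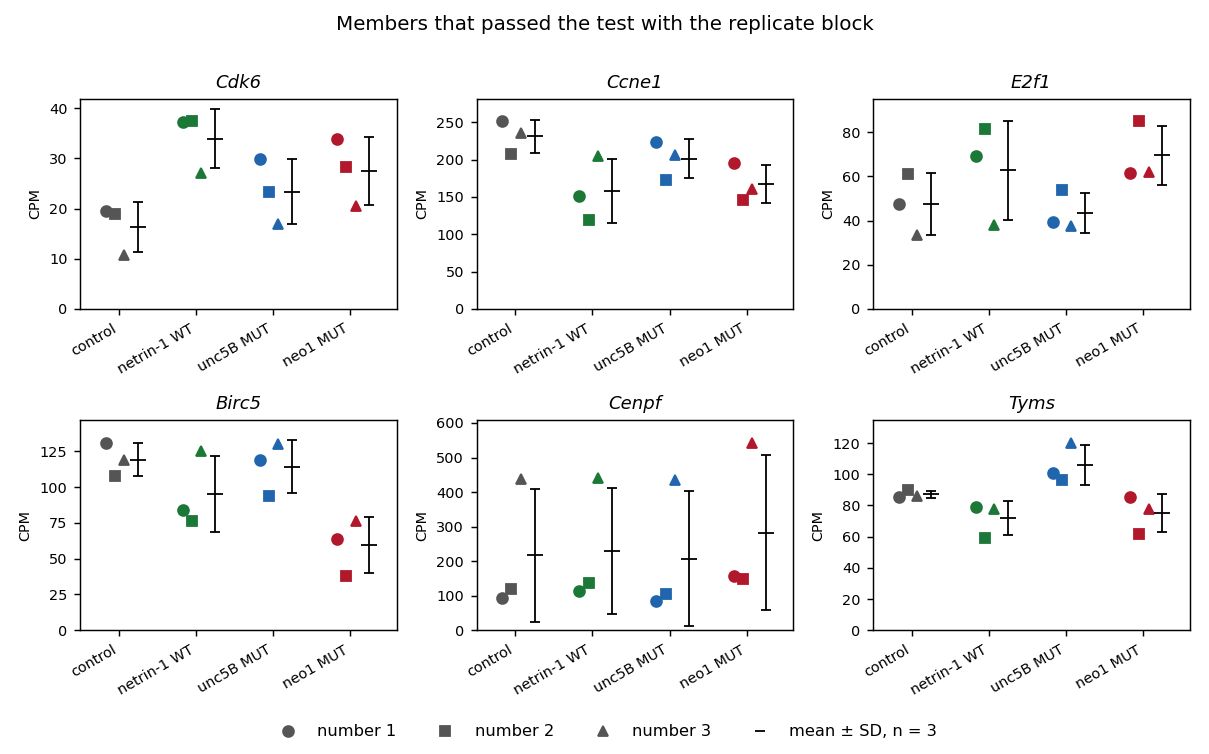
CPM in each library of the 6 cell cycle genes that passed the test with the replicate block, by group; marker shape gives the replicate number and the bar the mean ± SD of 3 libraries. Every netrin-1 WT and neo1 MUT library is above every control library for Cdk6, and every neo1 MUT library is below every control library for Birc5.

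Cdk6 (ENSMUSG00000040274, chromosome 5, 3341485 to 3531008, plus strand, GRCm38) encodes a kinase that partners D-type cyclins in G1. Its level was 19.4, 18.9 and 10.7 CPM in control libraries 1, 2 and 3 and rose to 37.2, 37.4 and 27.1 with netrin-1 WT. The neo1 MUT libraries held 33.8, 28.3 and 20.4 CPM and the unc5B MUT libraries 29.8, 23.3 and 16.8. All netrin-1 WT and neo1 MUT libraries were above all control libraries, whereas unc5B MUT overlapped control, and in every group the library numbered 3 was lowest. The mean went from 16.3 ± 4.91 CPM in control to 33.9 ± 5.90 in netrin-1 WT (n = 3), a log2 fold change of 1.08 ± 0.14 (SE; edgeR adjusted p = 0.00235 with the block, 0.409 without), with 0.94, 0.98 and 1.34 within numbers 1, 2 and 3. In neo1 MUT it was 0.77 ± 0.14 (adjusted p = 0.0125, 0.605 without the block), and in unc5B MUT 0.52 ± 0.14 (adjusted p = 0.602). The direct difference of unc5B MUT from netrin-1 WT was -0.56 ± 0.14 (adjusted p = 0.0645). The rise in netrin-1 WT passed with each of the 6 libraries left out in turn, and that in neo1 MUT was lost without control 1 (adjusted p = 0.0723) or neo1 MUT 1 (0.0598). The summed primitive endoderm markers were lowest in these same groups, and their part in the Cdk6 difference was not tested.

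Of the 11 tested genes within 250 kb of it, 0 passed in netrin-1 WT against control, with a median log2 fold change of -0.04. The D-type cyclins, its partners, did not pass. Ccnd1, cyclin D1, held 40.3, 43.7 and 35.4 CPM in control and 20.9, 29.6 and 46.1 in netrin-1 WT, which overlapped (log2 fold change -0.33 ± 0.28, adjusted p = 0.591), with 42.3, 22.1 and 32.9 in neo1 MUT and 52.8, 40.7 and 40.5 in unc5B MUT. Ccnd3, cyclin D3, held 181.4, 166.2 and 927.5 CPM in control and 180.7, 177.4 and 1062 in netrin-1 WT, with 178.2, 156.4 and 774.9 in neo1 MUT and 180.9, 155.6 and 1018 in unc5B MUT. It was high in the library numbered 3 of each group, and the groups overlapped. Cdk4 held 426.2, 550.0 and 476.9 CPM in control, 478.4, 398.8 and 510.6 in netrin-1 WT, 624.5, 370.8 and 626.6 in neo1 MUT and 648.3, 563.0 and 635.3 in unc5B MUT. All unc5B MUT libraries were above all control libraries for Cdk4, by a log2 fold change of 0.33 that did not pass the test (adjusted p = 1).

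Ccne1, cyclin E1, which drives entry into S phase, held 251.4, 207.3 and 235.4 CPM in control and 151.8, 119.2 and 204.3 in netrin-1 WT, groups that did not overlap. It fell from 231.4 ± 22.3 to 158.4 ± 42.9 CPM, a log2 fold change of -0.56 ± 0.14 at an adjusted p of 0.0498 with the block and 0.787 without. That call held in 1 of the 6 fits that left out a library, the fit without netrin-1 WT 3, in which the log2 fold change was -0.78 (adjusted p = 0.00258); in the other 5 the adjusted p was 0.0529 to 0.23. In neo1 MUT, Ccne1 held 194.8, 145.5 and 161.1 CPM, also below all control libraries, with a log2 fold change of -0.47 ± 0.14 (adjusted p = 0.0755). The related Ccne2 held 26.1, 24.7 and 9.27 CPM in control and 30.4, 25.4 and 8.58 in netrin-1 WT, and its difference was 0.05 on the log2 scale. E2f1, the factor that cyclin E activity frees, held 47.6, 61.2 and 33.3 CPM in control, 69.4, 81.3 and 37.9 in netrin-1 WT, 61.5, 85.0 and 62.1 in neo1 MUT and 39.2, 53.8 and 37.4 in unc5B MUT. All neo1 MUT libraries were above all unc5B MUT libraries, a log2 fold change of 0.68 ± 0.16 (adjusted p = 0.0368 with the block, 0.763 without) that was 0.65, 0.66 and 0.73 within the 3 numbers. The E2f1 call was lost with each of the 6 libraries left out in turn (adjusted p = 0.0602 to 0.204).

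**Figure D3:**
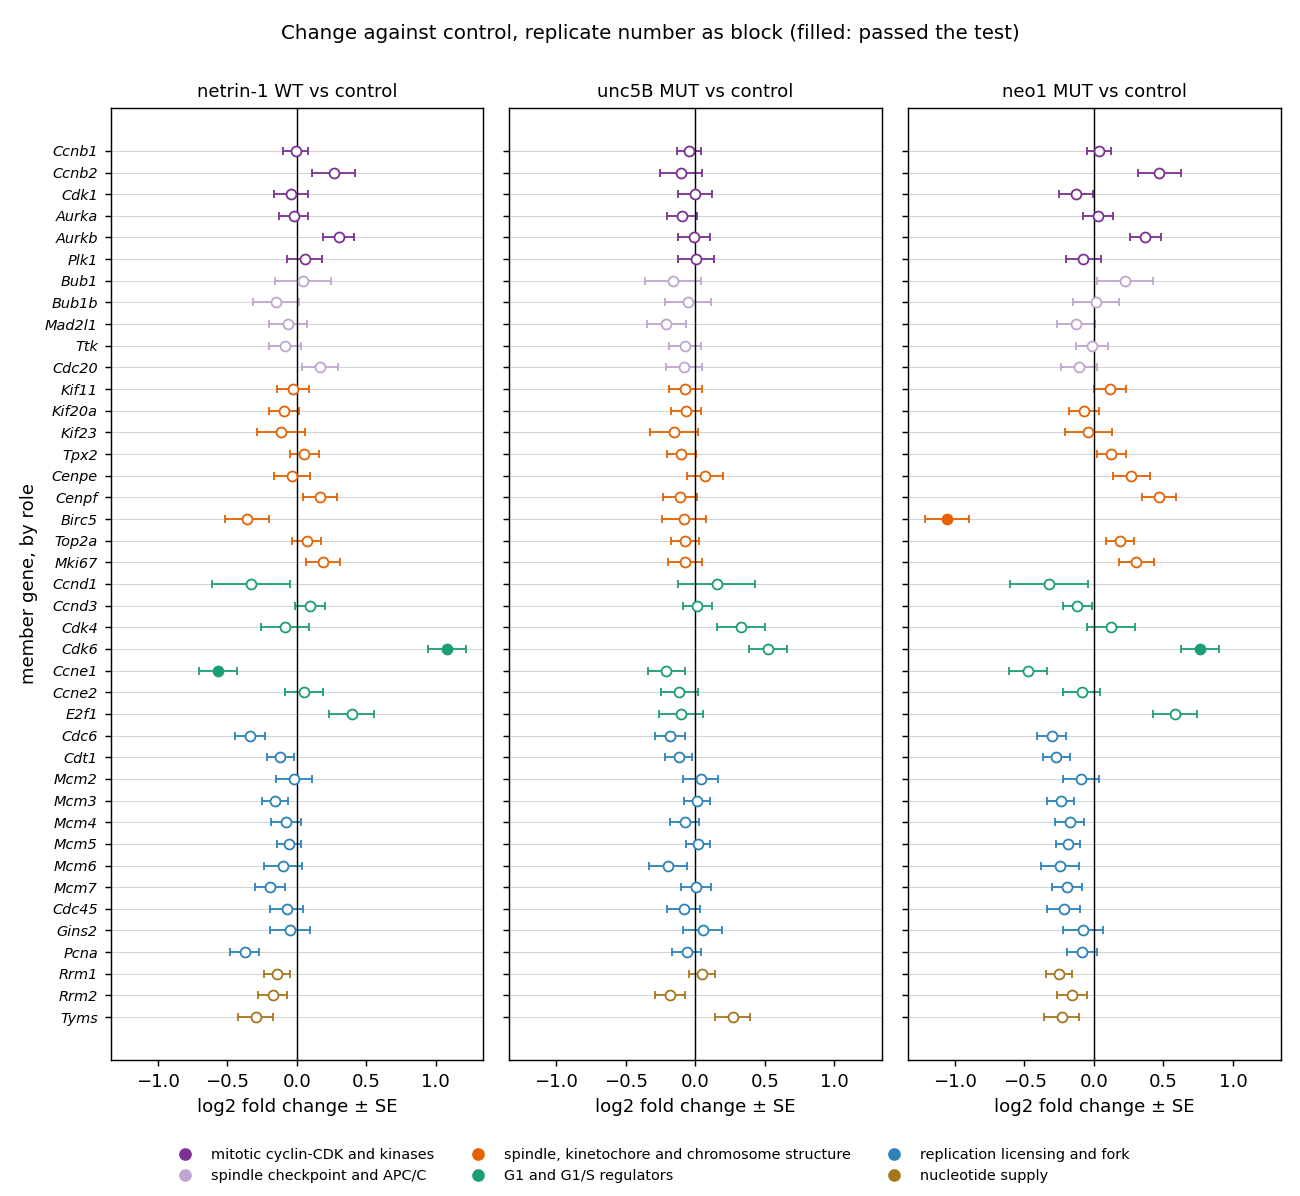
Log2 fold change ± SE of each cell cycle gene against control for the 3 netrin-1 groups, fitted with the block on number; filled points passed the test. Cdk6 and Ccne1 are filled for netrin-1 WT, Cdk6 and Birc5 for neo1 MUT and none for unc5B MUT. All 11 licensing and fork genes are left of 0 and unfilled for netrin-1 WT and neo1 MUT, which share the control libraries.

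Birc5 (ENSMUSG00000017716, chromosome 11, 117849251 to 117855743, plus strand, GRCm38) encodes survivin, a subunit of the chromosomal passenger complex that guides Aurkb in mitosis. Control libraries held 131.2, 107.6 and 119.2 CPM and neo1 MUT libraries 63.8, 38.2 and 76.5, with no overlap. The netrin-1 WT libraries held 84.2, 76.3 and 125.6 CPM and the unc5B MUT libraries 119.1, 93.9 and 130.3. Birc5 fell from 119.3 ± 11.8 CPM in control to 59.5 ± 19.5 in neo1 MUT, a log2 fold change of -1.06 ± 0.16 (adjusted p = 0.00545 with the block, 0.298 without), with -1.04, -1.49 and -0.64 within the numbers. The call held with each of the 6 libraries left out (adjusted p = 0.00341 to 0.0367). It was also lower in neo1 MUT than in unc5B MUT, by -0.98 ± 0.16 (adjusted p = 0.00927 with the block, 0.375 without), a call lost without unc5B MUT 1 (0.0692) or unc5B MUT 2 (0.0616). Against netrin-1 WT the difference was -0.70 ± 0.16 and did not pass (adjusted p = 0.0505).

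The genes near Birc5 went both ways. Of 14 tested genes within 250 kb, Tmc6 fell (log2 fold change -0.75, adjusted p = 0.0242) and Tmem235, at a mean of 0.561 CPM, rose, and the median was 0.46. Tk1, thymidine kinase, whose gene lies in that stretch, differed by -0.64 with an adjusted p of 0.0561. The partner kinase Aurkb held 64.5, 72.2 and 156.9 CPM in control and 81.4, 88.6 and 218.6 in neo1 MUT, a log2 fold change of 0.37 ± 0.11 (adjusted p = 0.0899), on the other side of 0 from Birc5.

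Cenpf, a large kinetochore protein of G2 and mitosis, held 156.2, 149.3 and 543.2 CPM in neo1 MUT against 83.8, 105.2 and 433.7 with unc5B MUT, 92.9, 118.7 and 437.7 in control and 114.7, 136.1 and 439.6 with netrin-1 WT. The groups overlapped, every library numbered 3 was above all others, and within numbers the log2 differences were 0.90, 0.51 and 0.33. With the block the log2 fold change was 0.58 ± 0.12 (adjusted p = 0.0263, 1 without the block), a call that held in 1 of 6 fits that left out a library, that without unc5B MUT 3 (0.0391), and had an adjusted p of 0.0534 to 0.183 in the others. Tyms, thymidylate synthase, held 85.6, 89.8 and 86.1 CPM in control, 78.7, 59.4 and 77.5 in netrin-1 WT, 85.6, 61.8 and 77.6 in neo1 MUT and 100.8, 96.4 and 120.3 in unc5B MUT. The unc5B MUT libraries were above all libraries of the other 3 groups. Tyms was lower in neo1 MUT than in unc5B MUT by -0.50 ± 0.13 (adjusted p = 0.0478 with the block, 0.566 without), and the call was lost with each of the 6 libraries left out (0.0761 to 0.191). The difference of unc5B MUT from netrin-1 WT was 0.56 ± 0.13 (adjusted p = 0.0506).

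The authors' deposited table was made with a model that no source used here describes. At an adjusted p of 0.05 it called 6 of the members in at least 1 comparison, a count without a share of all genes beside it. For netrin-1 WT against control it called 1, Cdk6 (log2 fold change 1.05, adjusted p = 0.0074), where 4.42% of its genes were called. The authors' deposited table called 0 members for unc5B MUT against control (0.0491% of genes) and 2 for neo1 MUT against control (5.52%), Birc5 (-1.07) and Cdk6 (0.75). For unc5B MUT against netrin-1 WT the authors' deposited table called Tyms (0.55, adjusted p = 0.0497; 3.07% of genes), and for neo1 MUT against netrin-1 WT it called 0 (2.19%). For neo1 MUT against unc5B MUT the authors' deposited table called 4 (6.36%): Ccnb2 (0.61), Cenpf (0.58), Birc5 (-0.99) and Rrm1 (-0.29). Ccne1 and E2f1 were called in none of its comparisons, and Ccnb2 and Rrm1 in none of the edgeR fits to all 12 libraries. Counted without a model, members whose groups did not overlap numbered 4 for netrin-1 WT against control (9.23% of all genes), 2 for unc5B MUT (4.38%), 8 for neo1 MUT (11.4%), 2 for unc5B MUT against netrin-1 WT (9.42%), 1 for neo1 MUT against netrin-1 WT (8.28%) and 5 for neo1 MUT against unc5B MUT (11.8%). Of 41 members, 8 is 19.5% and the other counts are 2.44% to 12.2%.

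Ccnb2, cyclin B2, held 119.3, 112.5 and 128.7 CPM in control, 98.3, 109.5 and 128.9 in unc5B MUT, 160.7, 186.4 and 154.5 in neo1 MUT and 146.8, 172.1 and 116.1 in netrin-1 WT. All neo1 MUT libraries were above all control and all unc5B MUT libraries, by 0.47 ± 0.15 (adjusted p = 0.108) and 0.57 ± 0.15 (adjusted p = 0.058) on the log2 scale. Its sister cyclin Ccnb1 held 309.4, 303.3 and 364.6 CPM in control, 310.5, 295.4 and 366.8 in netrin-1 WT, 318.0, 309.8 and 375.0 in neo1 MUT and 287.5, 280.3 and 384.5 in unc5B MUT. The groups overlapped for Ccnb1, and its log2 fold changes against control were -0.01, -0.05 and 0.04, each with an SE of 0.09. Cdk1, the kinase both cyclins activate, held 179.7, 190.7 and 204.0 CPM in control, 172.5, 179.3 and 206.4 in netrin-1 WT, 206.1, 148.4 and 171.0 in neo1 MUT and 190.2, 178.2 and 205.3 in unc5B MUT, and all 4 groups overlapped.

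Few genes of any role passed. In netrin-1 WT against control, with the block, 3.5% of all genes passed. Of the members, 0 of the 6 mitotic cyclin and kinase genes, 0 of the 5 checkpoint genes and 0 of the 9 spindle and chromosome genes passed. Among the others, 2 of the 7 G1 regulators (Cdk6 and Ccne1), 0 of the 11 licensing and fork genes and 0 of the 3 nucleotide genes passed. The call of Ccne1 was lost in 5 of the 6 fits that left out a library. All 11 licensing and fork genes were below 0, from -0.38 for Pcna to -0.02 for Mcm2 with a median of -0.10, and so were all 3 nucleotide genes (median -0.17). In neo1 MUT the same 11 genes were again below 0 (median -0.20, from -0.31 for Cdc6 to -0.08) and the 3 nucleotide genes too (median -0.23). In unc5B MUT 6 of the 11 were below 0 (median -0.06). The SEs were 0.0864 to 0.142 and none of these differences passed, and without the block 10 of the 11 were below 0 in netrin-1 WT and in neo1 MUT. Over all 41 members the median was -0.05 in netrin-1 WT, -0.07 in unc5B MUT and -0.09 in neo1 MUT with the block, against 0.01, 0.02 and 0.02 for all genes tested. In the same fits 28 of the 41 members were below 0 in netrin-1 WT, 28 in unc5B MUT and 26 in neo1 MUT. The share of all genes below 0 was not counted. The netrin-1 groups were compared with the same control libraries, so their directions are not independent.

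Mad2l1, a checkpoint protein, had the most negative value of unc5B MUT against control (-0.21 ± 0.14, adjusted p = 1), with 93.8, 97.1 and 426.6 CPM in control and 84.6, 91.1 and 333.2 in unc5B MUT, which overlapped. Cenpe, a kinetochore motor, had the highest of neo1 MUT against netrin-1 WT (0.30 ± 0.13, adjusted p = 0.32), with 108.2, 154.9 and 257.5 against 110.1, 103.0 and 204.9 CPM, also overlapping. Pcna held 396.3, 399.1 and 303.9 CPM in control and 346.8, 327.9 and 194.8 in netrin-1 WT, lower within each number (-0.19, -0.28 and -0.64) but with overlapping groups (adjusted p = 0.0872 with the block). It was at 427.4, 391.8 and 241.3 CPM in neo1 MUT and 413.2, 390.3 and 263.8 in unc5B MUT. Mcm2, of the replicative helicase, was at 478.9, 463.4 and 1832 CPM in control, 399.1, 405.3 and 2448 in netrin-1 WT, 412.8, 386.8 and 2147 in neo1 MUT and 446.9, 407.2 and 2473 in unc5B MUT, again high in each library numbered 3. Cdc6, which loads the helicase on origins, held 135.6, 111.9 and 106.5 CPM in control, 97.1, 91.1 and 91.2 in netrin-1 WT and 99.9, 94.5 and 91.2 in neo1 MUT. Both groups lay below all control libraries for Cdc6, with log2 fold changes of -0.34 ± 0.11 (adjusted p = 0.12) and -0.31 ± 0.11 (adjusted p = 0.136). Mki67, the proliferation marker Ki-67, held 247.4, 299.5 and 176.9 CPM in control, 306.7, 383.6 and 161.5 in netrin-1 WT, 284.3, 401.8 and 216.1 in neo1 MUT and 232.5, 274.8 and 174.9 in unc5B MUT. The groups overlapped for Mki67, and it did not pass in any comparison (adjusted p = 0.112 or higher with the block).

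Promoter sequence was examined because the mitotic and S-phase genes are known for different elements. RefSeq promoters (GRCm38.p6, 250 bases before the start) were found for 34 of the 41 genes, 17 of mitosis and 17 of G1, S phase and nucleotide supply; Tpx2, Ccne2, Gins2, Ccnd1, Kif20a, Mcm4 and Aurkb had no entry. Both strands were searched for the CCAAT box (CCAAT), the CHR element (TTTGAA) and for an E2F core (TTCCCGC, then the variant TTGGCGC, then the variant TTCGCGC and finally the variant TTGCCGC). The second core can overlap a CCAAT box on the other strand. CCAAT stood in 15 of the 17 mitotic promoters (88.2%) and 10 of the other 17 (58.8%), against 37.5% of the 27025 promoters of the table. TTTGAA stood in 6 of 17 (35.3%) and 2 of 17 (11.8%), against 18.3%. An E2F core stood in 3 of 17 (17.6%) and 6 of 17 (35.3%), against 9.01%. A match is a description of letters and not a binding site. The promoters printed here are those of members that passed a test in the edgeR fit with the block or in the authors' deposited table, 5′ to 3′ on the strand of the gene and without annotated exon sequence, with matches in capitals.
Ccnb2 (chr9:70421555-70421804, minus strand): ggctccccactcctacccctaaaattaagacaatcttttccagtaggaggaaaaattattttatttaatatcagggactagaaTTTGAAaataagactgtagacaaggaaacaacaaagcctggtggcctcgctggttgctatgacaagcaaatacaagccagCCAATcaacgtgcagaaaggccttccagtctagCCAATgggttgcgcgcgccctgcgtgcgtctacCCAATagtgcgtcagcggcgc
Cenpf (chr1:189688087-189688336, minus strand): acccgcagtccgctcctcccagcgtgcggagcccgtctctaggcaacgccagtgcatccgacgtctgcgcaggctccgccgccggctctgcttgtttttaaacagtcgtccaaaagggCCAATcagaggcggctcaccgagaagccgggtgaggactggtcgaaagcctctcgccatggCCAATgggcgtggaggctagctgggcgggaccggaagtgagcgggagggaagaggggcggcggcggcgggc
Rrm1 (chr7:102441445-102441694, plus strand): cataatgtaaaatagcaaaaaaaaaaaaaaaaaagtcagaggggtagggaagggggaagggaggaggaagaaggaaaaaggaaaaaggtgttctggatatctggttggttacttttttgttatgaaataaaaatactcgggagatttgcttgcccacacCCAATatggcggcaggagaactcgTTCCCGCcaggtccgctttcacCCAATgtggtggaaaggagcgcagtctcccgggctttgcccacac
Birc5 (chr11:117848987-117849236, plus strand): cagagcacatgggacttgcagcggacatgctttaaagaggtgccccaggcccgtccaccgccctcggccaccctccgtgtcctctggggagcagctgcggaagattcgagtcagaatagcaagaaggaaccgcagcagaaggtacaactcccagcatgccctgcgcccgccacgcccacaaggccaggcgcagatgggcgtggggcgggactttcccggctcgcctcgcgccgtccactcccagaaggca
Tyms (chr5:30073626-30073875, minus strand): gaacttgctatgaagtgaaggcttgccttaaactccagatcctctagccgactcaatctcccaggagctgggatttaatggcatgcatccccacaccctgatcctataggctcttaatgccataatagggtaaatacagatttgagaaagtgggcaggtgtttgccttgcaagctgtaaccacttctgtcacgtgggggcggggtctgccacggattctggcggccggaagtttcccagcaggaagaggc
Ccne1 (chr7:38107535-38107740, minus strand): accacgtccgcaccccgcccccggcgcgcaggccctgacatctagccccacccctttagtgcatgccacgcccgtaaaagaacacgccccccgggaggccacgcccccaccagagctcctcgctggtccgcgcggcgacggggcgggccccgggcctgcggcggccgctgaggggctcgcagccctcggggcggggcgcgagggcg
Counting bases back from the start to a match's 5′ base, Ccnb2 had 3 CCAAT boxes at 87, 54 and 21 and 1 CHR match at 167. Cenpf had 2 CCAAT boxes at 132 and 71, and Rrm1 had 2 at 91 and 45 with the E2F core TTCCCGC at 67. Birc5, Tyms and Ccne1 had no match in the bases printed, which says only that these letters are not there. For Ccne1 those are 206 bases, from 250 to 45 before the start, and matches nearer the start are not listed. The promoters of Cdk6 and E2f1 hold 57 and 250 bases of annotated exon and are not shown.

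More of the cell cycle genes differed by replicate number than by group. Between the libraries numbered 3 and those numbered 1 and 2, with the group as a term, 30 of the 41 passed (73.2%, where 62.8% of all genes passed), 20 higher (background 31.8%) and 10 lower (background 31%). For 25 members (61.0%) the 4 libraries numbered 3 did not overlap the other 8, as for 38.8% of all genes. The median log2 fold change was 0.17 against -0.04 for all genes. The number took a median of 75.9% of a member's variance over the 12 libraries and the group 12.1%. These shares were computed for the members only. With 62.8% of all genes passing between the numbers, they do not show a trait particular to the members. In 30 members the number took more than the group and in 11 less, among them Birc5 (68.0% by group), Tyms (67.8%), Ccnb2 (67.1%), Cdc6 (62.1%), Cdk6 (60.7%) and Ccne1 (54.7%). What a number stands for is in no label, and it cannot be told apart from depth, since the libraries numbered 3 are also the smallest.

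**Figure D4:**
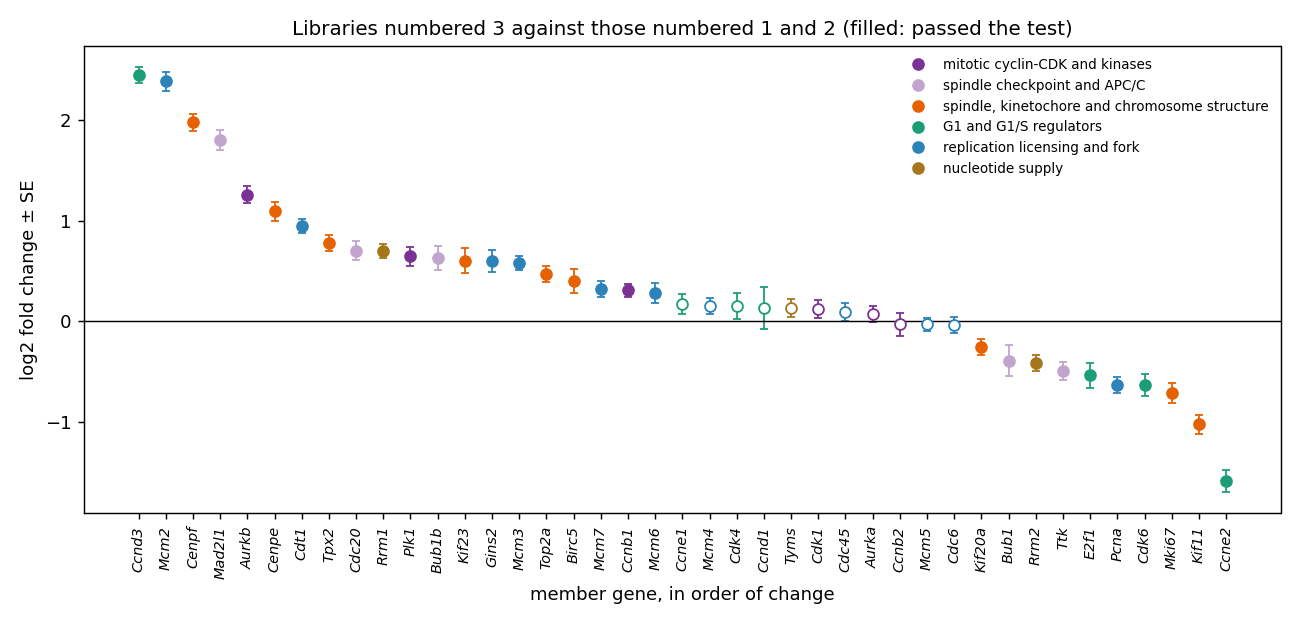
Log2 fold change ± SE of each cell cycle gene between the 4 libraries numbered 3 and the 8 numbered 1 and 2, with the group as a term, in order of change; filled points passed the test. The order runs from Ccnd3 at 2.45 to Ccne2 at -1.60, and genes of every role except the mitotic kinases lie on both sides of 0 among the filled points.

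The 3 members with the largest rise were Ccnd3, Mcm2 and Cenpf. Ccnd3 was at 774.9 to 1062 CPM in the libraries numbered 3 and at 155.6 to 181.4 in the others (log2 fold change 2.45 ± 0.08, adjusted p = 7.8e-10). Mcm2 was at 1832 to 2473 against 386.8 to 478.9 (2.39 ± 0.09, adjusted p = 4.28e-09), and Cenpf at 433.7 to 543.2 against 83.8 to 156.2 (1.98 ± 0.09, adjusted p = 1.26e-08). The 3 with the largest fall were Ccne2, at 7.97 to 9.27 CPM against 21.4 to 30.4 (-1.60), Kif11, a spindle motor, at 91.5 to 122.1 against 189.5 to 232.8 (-1.03), and Mki67, at 161.5 to 216.1 against 232.5 to 401.8 (-0.72). Genes of 1 complex or phase went different ways. Mcm2 to Mcm7 form 1 hexameric helicase with equal numbers of each subunit. The ratio of Mcm2 to the mean of Mcm3 to Mcm7, per length, was 0.638 to 0.692 in the libraries numbered 1 and 2 and 2.33 to 3.35 in those numbered 3. Mcm5 and Mcm4 did not pass between the numbers, while Mcm3, Mcm6 and Mcm7 rose by 0.28 to 0.58. Of the 5 checkpoint genes, Mad2l1 rose by 1.80, Cdc20 by 0.70 and Bub1b by 0.63, while Bub1 fell by 0.39 and Ttk fell by 0.50, and Ccnd3 rose while Ccnd1 did not pass (0.13 ± 0.21).

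Beyond the 41, a list of 88 other cell cycle genes (CDK inhibitors, pocket proteins and E2F factors, other cyclins, checkpoint and APC/C regulators, origin, fork and mitosis genes) was read in the same fits, and 87 were tested, all but Ccnb3. Without the block 0 passed in any comparison (6, 1, 4, 5, 4 and 2 at an unadjusted p of 0.05 in the order given above, or 1.15% to 6.9% of 87, against 1.13% to 7.26% of all genes). With the block 10 passed in at least 1, a count for which no share of all genes was computed. In netrin-1 WT against control 5 rose and 3 fell, which is 9.2% of 87 where 3.5% of all genes passed, and in neo1 MUT 2 rose and 2 fell, which is 4.6% against 5.26%. In unc5B MUT 0 passed (5 at an unadjusted p of 0.05, which is 5.75% against 4.7%). Between unc5B MUT and netrin-1 WT 5 were lower and 0 higher (5.75%, against 1.97%), between neo1 MUT and netrin-1 WT 1 was higher and 3 lower (4.6%, against 1.99%), and between neo1 MUT and unc5B MUT 1 was higher and 1 lower (2.3%, against 4.87%). The genes that rose in netrin-1 WT include Ccna2, Ect2, E2f5 and Ccna1, all on chromosome 3, where many genes rose together (below). Ccna2, Ect2 and E2f5 were also lower in both mutants than in netrin-1 WT. Shares of the list without these genes were not computed.

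**Figure D5:**
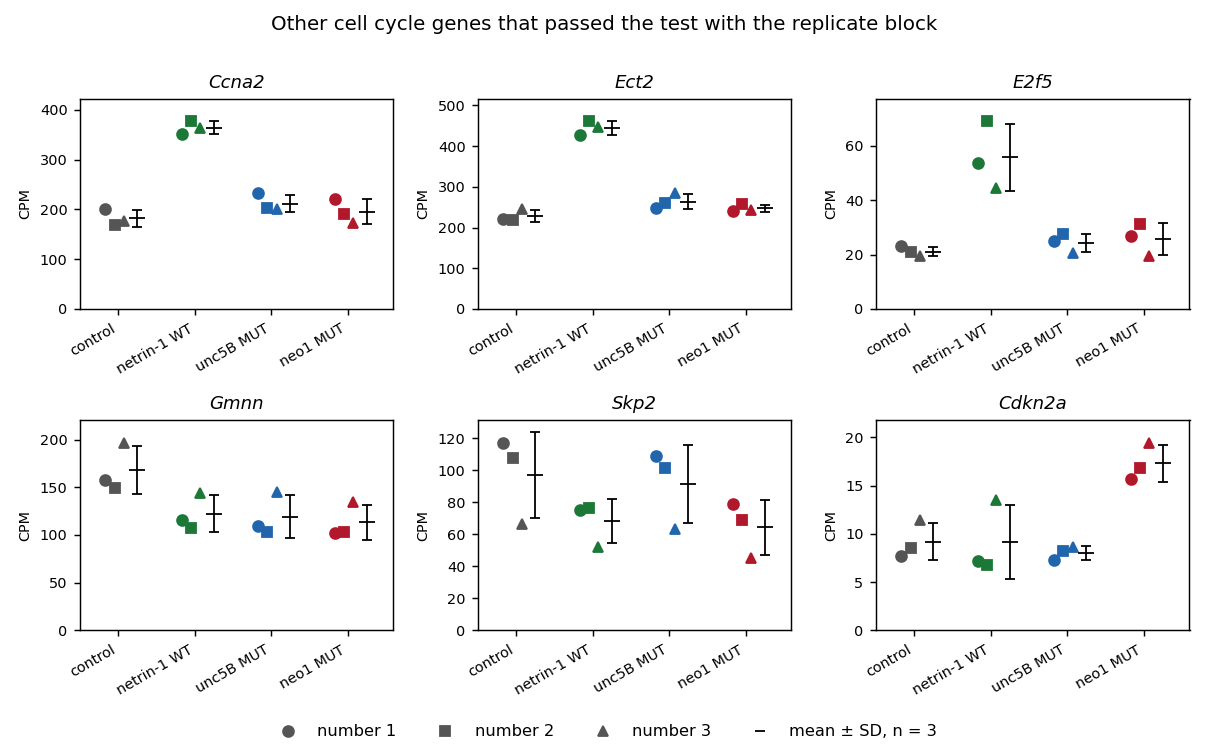
CPM in each library of 6 further cell cycle genes that passed the test with the replicate block in at least 1 comparison, by group; marker shape gives the replicate number and the bar the mean ± SD of 3 libraries. Ccna2, Ect2 and E2f5 are higher in all netrin-1 WT libraries than in all libraries of the other groups, and Cdkn2a is higher in all neo1 MUT libraries.

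Ccna2, cyclin A2, which acts in S phase and G2, held 201.1, 168.0 and 176.5 CPM in control and 351.8, 377.3 and 363.1 in netrin-1 WT, while unc5B MUT held 202.0 to 232.1 and neo1 MUT 172.9 to 221.8. It rose in netrin-1 WT by a log2 fold change of 1.01 ± 0.11 (adjusted p = 0.00085). Ect2, an exchange factor of cytokinesis, rose from 228.7 ± 13.9 to 445.5 ± 16.9 CPM (0.96 ± 0.09, adjusted p = 0.000534), and E2f5, an E2F repressor, from 21.1 ± 1.81 to 55.8 ± 12.4 CPM (1.38 ± 0.14, adjusted p = 0.000678). All 3 were lower in both mutants than in netrin-1 WT, by 0.76 to 1.19 on the log2 scale. They lie on 1 chromosome: E2f5 at 14578641 to 14606309, Ect2 at 27097222 to 27153878 and Ccna2 at 36564865 to 36572150 on chromosome 3 (GRCm38). Of the 235 genes tested between 5 and 55 Mb of chromosome 3, 86 rose and 0 fell in netrin-1 WT against control. Over all genes 1.74% rose and 1.76% fell there. The median log2 fold change of the 235 was 0.81, against 0.20 in unc5B MUT and 0.11 in neo1 MUT. Ccna1, the germline cyclin A on the same chromosome at 55045469, was at 0.0664 to 0.726 CPM in control and 1.09 to 6.30 in netrin-1 WT and 0.641 to 1.73 in neo1 MUT, low levels at which it passed against control in both (2.92 ± 0.44, adjusted p = 0.00595, and 1.97 ± 0.44, adjusted p = 0.0314). The 41 members include 1 gene of chromosome 3, Cenpe, which lies at 135212537, outside that stretch, and did not pass.

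Gmnn, geminin, the inhibitor of licensing, fell in netrin-1 WT (-0.46 ± 0.09, adjusted p = 0.0186) and in neo1 MUT (-0.57 ± 0.09, adjusted p = 0.00623). It held 157.5, 149.7 and 196.9 CPM in control, 115.9, 106.9 and 144.3 in netrin-1 WT, 101.6, 103.4 and 134.4 in neo1 MUT and 109.2, 103.2 and 144.8 in unc5B MUT. Every netrin-1 library was below every control library for Gmnn. In unc5B MUT against control Gmnn was at CPM close to those of netrin-1 WT and did not pass. Only 0.0285% of all genes passed in that comparison, against 3.5% for netrin-1 WT. Skp2, a ubiquitin ligase subunit that removes CDK inhibitors, fell in netrin-1 WT (-0.49 ± 0.10, adjusted p = 0.0216) and in neo1 MUT (-0.59 ± 0.10, adjusted p = 0.00884). Cdkn1b, the inhibitor p27 that Skp2 targets for destruction as a protein, was lower in unc5B MUT than in netrin-1 WT (-0.71 ± 0.14, adjusted p = 0.0357). The calls of Skp2 and Cdkn1b come from different comparisons, and a link between the 2 genes was not tested. Skp2 lies at 9111985 to 9155425 on chromosome 15 and Cdkn1b at 134920401 to 134925513 on chromosome 6 (GRCm38).

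Cdkn2a, the locus of the inhibitors p16 and p19Arf, which these counts do not separate, held 15.6, 16.8 and 19.5 CPM in neo1 MUT, against 7.72, 8.49 and 11.4 in control, 7.14, 6.79 and 13.5 in netrin-1 WT and 7.25, 8.21 and 8.64 in unc5B MUT. All neo1 MUT libraries were above all others, by 0.93 ± 0.19 against control (adjusted p = 0.0214), 0.97 ± 0.19 against netrin-1 WT (0.0301) and 1.10 ± 0.19 against unc5B MUT (0.013). In netrin-1 WT, Foxm1, a factor of the mitotic gene program, rose (0.60 ± 0.14, adjusted p = 0.0447) and Rpa1, of the single-strand binding complex, fell (-0.52 ± 0.11, adjusted p = 0.0267). Foxm1 lies on chromosome 6 at 128362967 to 128376146, the chromosome of Cdkn1b. The inhibitor Cdkn1a did not pass in any comparison. None of these calls was made without the block.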

How the data were processed

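The authors deposited estimated counts per Ensembl gene in 12 libraries, 3 per group, and a table of their own comparisons with log2 fold changes, signed fold changes (treated as a score) and p-values, per the file headers. The submitters' processing notes name FastQC 0.11.5, STAR 2.5.2b, R 3.3.2, Bowtie, Bowtie2 and DESeq2, with builds mm10, GRCm38.p5 and GRCh38; the role of each, the counter and the use of strand are not stated, so overlapping genes cannot be separated. The deposited normalized table was not used.

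Members were matched by symbol in the comparison table. Counts were rounded, filtered with filterByExpr (21053 of 52661 genes), scaled by TMM and tested over all 12 libraries with edgeR 4.0.16 (quasi-likelihood test, R 4.3.3), with Benjamini-Hochberg adjustment over all genes tested at 0.05. The first fit had the group only, and the other added the replicate number as a block. Deviations from group means correlated at 0.58 to 0.88 between same-numbered libraries (18 pairs), 0.49 to 0.76 between numbers 1 and 2 and -0.83 to -0.60 between number 3 and another. Every same-number pair passed 0.1, and the numbers, which the labels give, were taken to pair the libraries. Pairs of numbers 1 and 2 passed it too, so the check sets number 3 apart but cannot show a pairing by 3 numbers. An exact permutation test of 3 against 3 cannot go below 0.1.

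RPKM used exon lengths from GENCODE M21, in which 52566 IDs were found. Alternatives used DESeq2 1.42.0, limma 3.58.1 (voom), other filters and left-out libraries. The edgeR steps were tested on simulated data, where the fit without the block missed every 2-fold change and the fit with it missed most. A gene that did not pass is therefore not shown to be unchanged. The members and all lists were chosen with earlier results of these data known. Named in full were members past the threshold in any comparison, a marker of each phase, and the extremes of each comparison; of the other cell cycle genes, those past the threshold, up to 8 a comparison.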

Additional observations from a re-analysis of the deposited data

Results flagged for a closer look

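For 4 genes the effects of neo1 MUT and unc5B MUT, each against the shared control, differed when the difference itself was tested with the replicate block. It was -0.979 on the log2 scale for Birc5, 0.578 for Cenpf, 0.685 for E2f1 and -0.502 for Tyms (edgeR adjusted p = 0.00927, 0.0263, 0.0368 and 0.0478). Without the block none of the 4 passed. They are 9.76% of the members, where 4.87% of all genes passed with the block. With 1 library left out in turn, Birc5 lost its call in 2 of the 6 fits, Cenpf in 5, and E2f1 and Tyms in all 6.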

How the results depend on the processing

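The calls depend on the replicate block. Without it 0 members passed in every comparison. With it 2 passed for netrin-1 WT against control, 2 for neo1 MUT against control and 4 for neo1 MUT against unc5B MUT. In these comparisons 3.5%, 5.26% and 4.87% of all genes passed. With the block and only numbers 1 and 2, chosen after seeing the data, 8, 7, 9, 1 and 8 passed (netrin-1 WT against control, neo1 MUT against control, unc5B MUT against netrin-1 WT, neo1 MUT against netrin-1 WT, neo1 MUT against unc5B MUT), which is 19.5%, 17.1%, 22%, 2.44% and 19.5% of the members where 16.3%, 10.5%, 13.4%, 2.95% and 10% of all genes passed. DESeq2 with the replicate block, also added afterwards, called 4, 1, 7, 2, 1 and 7 over the 6 comparisons, in the order of the report, and 8.25%, 0.499%, 10.2%, 7.04%, 5.39% and 10.4% of all genes. Without the block, numbers 1 and 2 alone gave 1 call for netrin-1 WT against control (Cdk6), 1 for neo1 MUT against control (Birc5) and 1 for neo1 MUT against unc5B MUT (Ccnb2), where 4.22%, 2.76% and 2.32% of all genes passed.

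With the block and 1 library left out, 1 to 4 members passed for netrin-1 WT against control, where 0.971% to 8.43% of all genes passed. For neo1 MUT against control 1 to 2 passed (1.28% to 5.03% of all genes). For unc5B MUT against netrin-1 WT 0 to 7 passed (0.163% to 8.29%), and for neo1 MUT against unc5B MUT 0 to 3 (0.61% to 2.25%). The fit without netrin-1 WT 3 gave the 7 (17.1% of the members, against 8.29%) and the 4 (9.76%, against 8.43%). The fit without unc5B MUT 3 gave the 3 (7.32%, against 2.25%). Unblocked, Cenpf in neo1 MUT against unc5B MUT ran from -0.445 without neo1 MUT 3, a reversed sign, to 1.582 without unc5B MUT 3.

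The unblocked median of the members for netrin-1 WT against control was -0.086 with no filter, -0.051 with a filter of 1 CPM, -0.053 with limma-voom and -0.011 with numbers 1 and 2 alone, and for neo1 MUT against netrin-1 WT it was -0.014 with those numbers. With 1 library left out it ran from -0.155 to 0.05 (netrin-1 WT against control), -0.198 to 0.058 (unc5B MUT), -0.199 to 0.057 (neo1 MUT), -0.159 to 0.144 (unc5B MUT against netrin-1 WT), -0.083 to 0.089 (neo1 MUT against netrin-1 WT), -0.174 to 0.096 (neo1 MUT against unc5B MUT) and 0.203 to 0.249 (number 3 against numbers 1 and 2). The cause was not tested. The lowest member count in a library was 147.5; the libraries numbered 3 are the smallest, so depth and number cannot be told apart.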
